A study of Mus musculus with 2 samples.

Results

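The olfactory receptor genes of mouse chromosomes 14 and 19 were described by the chromosome contacts recorded in their windows on each parental allele. The members were the genes with an Olfr symbol that RefSeq places on these chromosomes in GRCm38, and the windows of 50 kb that overlap them. There were 133 such genes, 42 on chromosome 14 and 91 on chromosome 19, of 1420 Olfr genes on the autosomes, and 31 of the 133 were annotated as pseudogenes (3 on chromosome 14 and 28 on chromosome 19). The table held a window for 120 of them, 29 on chromosome 14 and all 91 on chromosome 19, in 51 windows of the 43941 in the table (17 and 34). Genes with identical windows counted as 1 locus, which gave 52 loci. The remaining 13 genes, all on chromosome 14 (Olfr722 to Olfr726, Olfr730 to Olfr733, Olfr742, Olfr743, Olfr221 and Olfr277-ps1), overlapped no window of the table and were not analysed here.

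Olfactory receptors are G protein-coupled receptors that bind odorants on the cilia of olfactory sensory neurons. Their genes lie in clusters of close relatives that arose by tandem duplication, and the protein is usually encoded by a single exon. Each mature neuron transcribes 1 receptor gene from 1 allele, and the other receptor genes stay in silent heterochromatin. ES cells are not neurons and are not known for choosing a receptor, so the contacts described here are those of receptor genes outside their own tissue.

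The cells were F121-6, a female hybrid mouse ES cell line with 1 chromosome set of the 129 strain and 1 of Mus castaneus (Cas), grown on mitomycin-C-inactivated fibroblast feeders in medium with serum and LIF. Promoter Capture Hi-C crosslinks chromatin, cuts it with HindIII, ligates ends that lay close together and enriches, with RNA baits at 22225 promoters, the products that hold a promoter. Both samples, replicates 1 and 2, belonged to this single group, and the labels name the same columns for both. Each allele therefore had 1 pooled count and 1 pooled distance per window, and no spread between replicates could be given. The line is a single hybrid genotype, so allele, strain and parent of origin cannot be told apart, and the table holds no expression values with which to check the cell type. Over all windows of the table, 50842396 interactions fell on 129 and 37470557 on Cas, so that 57.6% were on 129. Ratios below are log2((129 + 1)/(Cas + 1)) minus 0.45, the median over the 43762 windows that held at least 10 interactions. Intervals are exact Clopper-Pearson 95% intervals and cover counting error only.

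Both windows called below held a receptor gene with a close copy in an adjacent window, though not every gene in them had one. The stretches that RefSeq gives for the genes with a copy (GRCm38.p6, 250 bases before the annotated start and 50 after) are shown as pairs. Capitals mark bases that are not identical to the partner in a global alignment. Olfr746 (chr14:50652989-50653288, plus strand) lay in the window with the highest ratio of all members, and Olfr748 (chr14:50710082-50710381, plus strand) in the window next to it. The stretches were identical at 289 of 300 aligned positions (96.3%).
Olfr746: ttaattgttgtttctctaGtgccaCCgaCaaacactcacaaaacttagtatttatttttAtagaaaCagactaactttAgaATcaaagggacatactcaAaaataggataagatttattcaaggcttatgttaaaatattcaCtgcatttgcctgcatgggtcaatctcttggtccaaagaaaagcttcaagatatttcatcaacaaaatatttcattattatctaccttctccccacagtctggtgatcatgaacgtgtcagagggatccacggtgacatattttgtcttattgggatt
Olfr748: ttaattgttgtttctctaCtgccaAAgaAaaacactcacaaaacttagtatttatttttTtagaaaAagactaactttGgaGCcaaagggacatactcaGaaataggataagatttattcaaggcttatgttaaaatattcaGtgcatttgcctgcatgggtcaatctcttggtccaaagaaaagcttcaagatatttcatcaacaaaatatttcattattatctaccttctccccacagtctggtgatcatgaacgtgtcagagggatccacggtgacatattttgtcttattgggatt
On chromosome 19, Olfr1447 (chr19:12901729-12902028, minus strand) lay in the other window called below, and Olfr1446 (chr19:12890526-12890825, minus strand) in the window before it. They were identical at 279 of 303 aligned positions (92.1%).
Olfr1447: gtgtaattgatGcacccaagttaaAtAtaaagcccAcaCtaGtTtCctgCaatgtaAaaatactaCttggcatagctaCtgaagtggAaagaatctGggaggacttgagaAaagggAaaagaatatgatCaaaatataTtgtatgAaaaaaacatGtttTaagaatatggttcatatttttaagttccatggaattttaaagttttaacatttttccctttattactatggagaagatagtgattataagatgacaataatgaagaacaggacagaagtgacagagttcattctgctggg
Olfr1446: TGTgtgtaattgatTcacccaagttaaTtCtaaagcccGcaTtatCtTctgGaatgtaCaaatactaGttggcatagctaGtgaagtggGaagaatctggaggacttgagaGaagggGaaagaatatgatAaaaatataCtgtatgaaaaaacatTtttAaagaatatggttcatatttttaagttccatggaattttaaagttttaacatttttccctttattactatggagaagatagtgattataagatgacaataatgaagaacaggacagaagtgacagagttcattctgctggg
The same windows held a further pair, Olfr1448 (chr19:12920258-12920557, minus strand) and Olfr1445 (chr19:12883633-12883932, plus strand), identical at 270 of 301 aligned positions (89.7%). It falls short of the 90% used for pairs below and is shown because it lies in these windows. Olfr1502 and Olfr1505 had the same identity, in windows without a call (ratios 0.24 and -0.28).
Olfr1448: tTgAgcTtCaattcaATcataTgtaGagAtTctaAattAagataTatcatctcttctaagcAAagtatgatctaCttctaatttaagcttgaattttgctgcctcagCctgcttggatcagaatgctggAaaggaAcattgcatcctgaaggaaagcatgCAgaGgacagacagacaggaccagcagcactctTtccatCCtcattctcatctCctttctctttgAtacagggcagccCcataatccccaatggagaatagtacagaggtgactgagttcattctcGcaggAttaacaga
Olfr1445: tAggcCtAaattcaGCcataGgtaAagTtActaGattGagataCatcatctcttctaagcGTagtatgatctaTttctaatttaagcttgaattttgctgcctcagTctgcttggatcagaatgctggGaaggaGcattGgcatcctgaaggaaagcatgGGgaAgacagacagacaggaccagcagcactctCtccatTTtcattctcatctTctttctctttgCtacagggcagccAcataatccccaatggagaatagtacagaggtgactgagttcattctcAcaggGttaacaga
Each stretch ends inside the receptor's coding start. In the RefSeq table, 68 of the 92 members with such a stretch had the start codon ATG at the first base after the annotated start, so the annotated start of many of these genes is that of the reading frame and the true transcription start is not given. Reads from near-identical copies can be placed in either one, so counts of these windows are uncertain to that extent, which was not tested. No Cas genome or list of strain variants was used here, so whether the Cas chromosomes carry these genes in the same number, and how many reads there could be assigned to an allele, was not tested. A low Cas count below is a low number of interactions assigned to Cas.

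Of the 51 windows with a member, 2 had unequal allele counts in a beta-binomial test over all 43762 windows, both with more on 129 and none with more on Cas. This test sets each window against the spread of all windows (overdispersion 0.0165, equal to an SD of 6.35 percentage points of the 129 share) and adjusts by Benjamini-Hochberg at 0.05. Over the whole table the same test called 0.727% of windows with more on 129 and 0.217% with more on Cas. At an unadjusted p under 0.05 there were 5 member windows with more on 129 and 1 with more on Cas, against 3.83% and 1.68% of all windows. With loci in place of windows the same 2 were called, where 1.03% of all loci were called with more on 129 and 0.327% with more on Cas. With an overdispersion fitted to each of 10 bins of the summed count the 2 windows were called again, beside 0.546% of all windows with more on 129 and 0.151% with more on Cas. An exact binomial test, which knows no spread beyond counting, called 27 member windows with more on 129 and 17 with more on Cas, but also 27.1% and 24.3% of all windows.

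The window of Olfr746 and Olfr747 (chr14:50650001-50700000) had 677 interactions on 129 and 18 on Cas. Its 129 share was 97.4% (95.9 to 98.5%) and its ratio 37.6 (23.6 to 63.9), or 4.70 on the centred log2 scale (adjusted p = 2.6e-15, beta-binomial). Among the 471 Olfr windows of all autosomes this ratio ranked first. The windows on both sides had nearly equal alleles. That of Olfr744 and Olfr745 held 3282 interactions on 129 and 2863 on Cas, and that of Olfr748 and Olfr749 held 4003 on 129 and 3558 on Cas. The window of Olfr746 was thus low on both alleles next to its neighbours. Its 129 count was 0.305 times and its Cas count 0.00808 times the median of the chromosome 14 Olfr windows. It had a distance of 261 kb for 129 and of 282 kb for Cas, where it rests on 18 interactions. This window was already known to be unequal when the members were chosen, so its call is a description and not independent support.

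The window of Olfr1447, Olfr1448 and Olfr1449 (chr19:12900001-12950000) had 3171 interactions on 129 and 319 on Cas. Its 129 share was 90.9% (89.9 to 91.8%) and its ratio 9.94 (8.86 to 11.2), or 2.86 on the centred log2 scale (adjusted p = 3.59e-08, beta-binomial). It ranked second of the 471, and the highest Olfr window on any other autosome stood at 2.37. Its neighbours leaned the same way by less. The window of Olfr1444, Olfr1445 and Olfr1446 had 5687 on 129 and 2614 on Cas (0.67), and that of Olfr1450 and Olfr1451 had 1003 on 129 and 553 on Cas (0.40). Neither passed the test (adjusted p = 1 for both, beta-binomial). Among the 471 autosomal Olfr windows, 10 were called with more on 129, the 2 member windows included, and 0 with more on Cas. In the 420 Olfr windows of the other autosomes 8 were called (1.90%), beside 0.727% of all windows with more on 129 and 0.217% with more on Cas. Those 420 had a median summed count of 3699.5, against 974 over all windows.

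**Figure D1:**
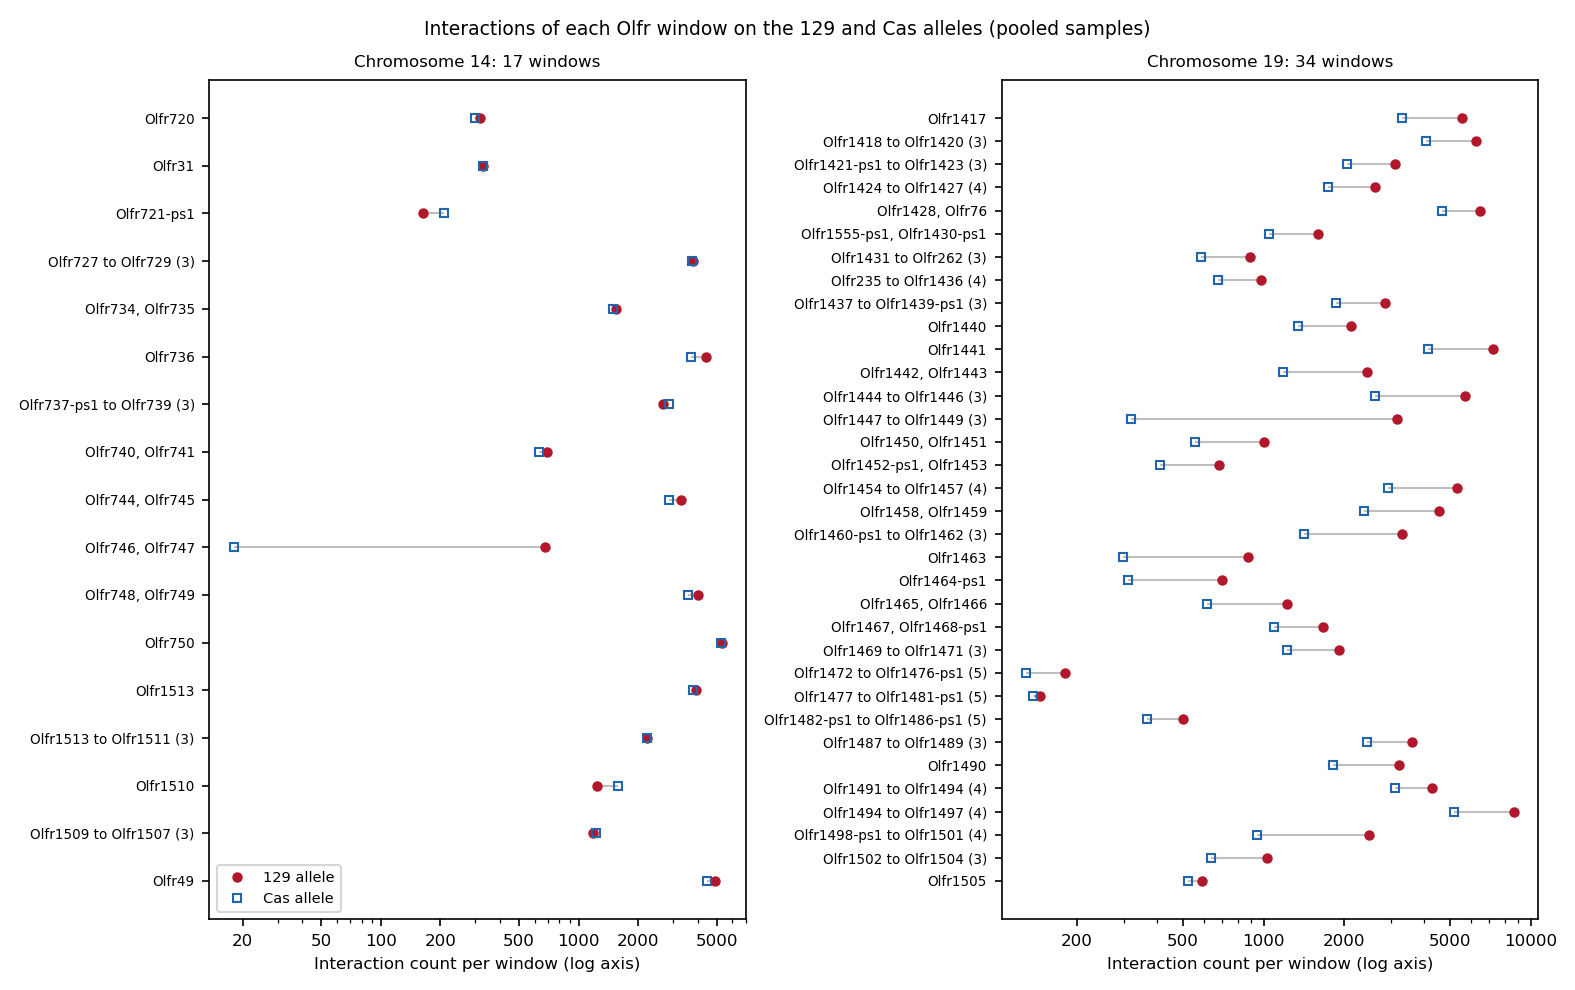
Interaction counts of the 51 windows with an Olfr gene on chromosomes 14 and 19 (log axis), in chromosome order from top to bottom, with filled circles for the 129 allele and open squares for the Cas allele of the pooled samples. The symbols stay close together on chromosome 14 except at Olfr746 and Olfr747 (677 on 129 and 18 on Cas), while on chromosome 19 the 129 count lies to the right in all 34 windows.

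The near-identical stretches were then counted over the whole set. Each of the 92 was aligned to the 944 Olfr stretches of the RefSeq table, and the closest one had a median identity of 58.9%. A partner at 90% or more was found for 12 genes, which formed 6 pairs, and all 12 partners lay on the gene's own chromosome. In 5 of these pairs both genes had a window, and never the same one. The pair Olfr1471 and Olfr1474 had window ratios of 0.20 and 0.02, the pair Olfr1480 and Olfr1487 had -0.36 and 0.11, and the pair Olfr1501 and Olfr1504 had 0.94 and 0.24. Beside these, Olfr746 and Olfr748 had 4.70 and -0.28, and Olfr1447 and Olfr1446 had 2.86 and 0.67. Both called windows hold a gene of such a pair, and 3 of the 5 pairs lay in windows without a call. The partners Olfr748 and Olfr1446 also lay in windows without a call. Of the other genes in the called windows, Olfr1448 had its closest stretch at 89.7%, Olfr747 at 55.9% and Olfr1449 at 59.8%. The part of sequence identity in the allelic counts was not tested.

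The sequence letters were also searched on both strands for 3 motifs: AAGCTT, which HindIII cuts, TAATTA, a core bound by homeodomain factors such as those of the Lhx and Emx families, and CCCNNGGG, a core bound by EBF factors. No pair of matches to different motifs overlapped. AAGCTT occurred in 6 of 92 members (6.52%), against 7.45% of all 32851 stretches in the table and 7.49% of those of all Olfr genes. It began at base 183 in both Olfr746 and Olfr748, at base 85 in Olfr1448, at base 84 in Olfr1445, and at base 119 in both Olfr1501 and Olfr1504. TAATTA occurred in 19 (20.7%), against 5.29% of all stretches and 18.6% of all Olfr stretches, and Olfr747 held it at base 21. CCCNNGGG occurred in 1 (1.09%, Olfr1443), against 13.7% of all stretches and 3.06% of all Olfr stretches. The median GC content was 35.0% in the members, the same as over all Olfr stretches, against 52.7% in all stretches, and the part of base composition in these shares was not tested. The other members of the called windows, Olfr1447 and Olfr1449, had no match to any of the 3 motifs.

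The receptor windows of chromosomes 14 and 19 leaned to opposite sides of the genome-wide median. Without the called windows their medians were -0.42 over 16 windows and 0.21 over 33, and the values below include the called windows. On chromosome 14 the median centred ratio of the 17 windows was -0.40 (quartiles -0.46 and -0.32) and 1 of 17 was above 0, the window of Olfr746. On chromosome 19 the median of the 34 windows was 0.23 (quartiles 0.14 and 0.45) and 31 of 34 were above 0. Windows without an Olfr gene had a median of -0.11 on chromosome 14, with 36.7% above 0, and of -0.02 on chromosome 19, with 46.7% above 0. The 420 Olfr windows of the other autosomes had a median of 0.06, with 60.7% above 0. By chromosome these also fell on both sides. The Olfr windows of chromosome 1 had a median of -0.50 with 2 of 15 above 0, those of chromosome 13 had -0.19 and those of chromosome 17 had -0.13, while those of chromosome 2 had 0.16 with 37 of 50 above 0. The 129 share of summed counts was 51.5% in the chromosome 14 Olfr windows and 63.3% in those of chromosome 19, against 55.4% and 57.5% in the other windows of each chromosome. These are descriptions of windows that share their neighbours, libraries and baits, and no test of either set was made.

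The 16 chromosome 14 windows other than that of Olfr746 ran from -0.80 to -0.21, and the SD was 1.26 with the window of Olfr746 and 0.17 without it. The 33 chromosome 19 windows other than that of Olfr1447 ran from -0.36 to 1.10, and the SD was 0.54 with the window of Olfr1447 and 0.31 without it. In raw counts the Cas allele was ahead in 6 of the 17 windows on chromosome 14 and in 0 of the 34 on chromosome 19. A difference of 2-fold or more from the centre was seen in 3 of 51 member windows (5.88%), which were the 2 called ones and that of Olfr1463, against 3.32% of all windows.

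**Figure D2:**
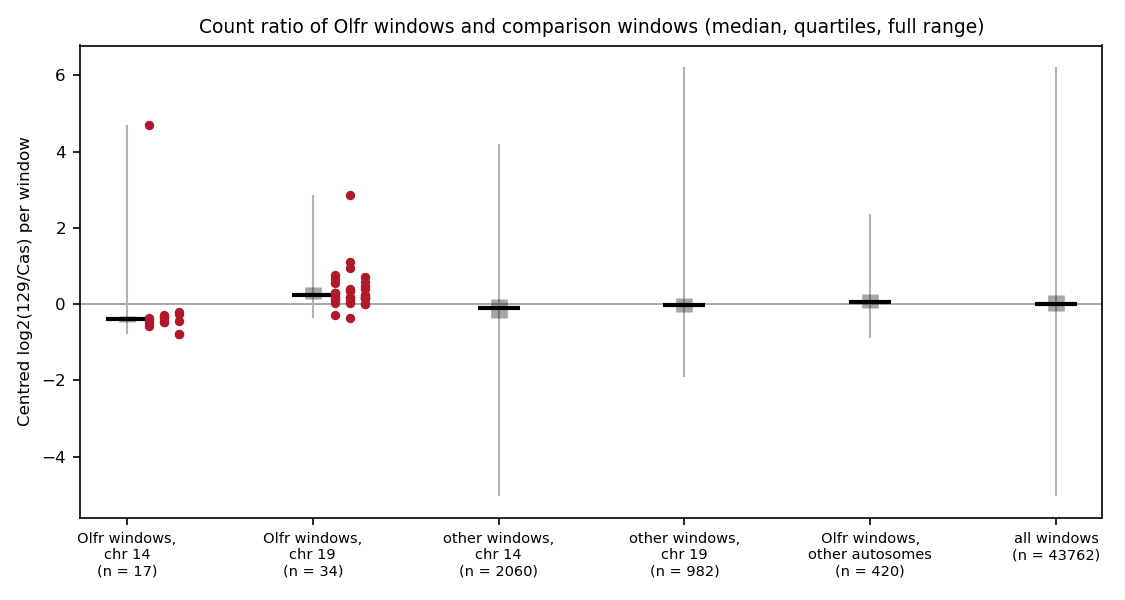
Centred log2 ratio of 129 to Cas per window for the Olfr windows of chromosomes 14 and 19, the other windows of the same chromosomes, the Olfr windows of other autosomes and all windows. Horizontal bars are medians, grey boxes quartiles, thin lines the full range, and points are single Olfr windows. The chromosome 14 points lie below 0 except the one at 4.70, and 31 of the 34 chromosome 19 points lie above it.

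The 42 genes of chromosome 14 formed 7 groups when genes less than 300 kb apart were joined, and 5 of these had a window. The largest, Olfr722 to Olfr749, spans 850 kb with 28 genes and holds 13 genes of the MOR106 family, which include Olfr746. The table held 9 of the 18 windows of 50 kb across it, and 17 of its genes lay in 8 windows with a 129 share of 52.7% (52.2 to 53.2%), or 51.9% without the window of Olfr746. The table held 10 windows within 500 kb outside the cluster, most of them beyond Olfr749. These had a lower share of 49.8% (49.3 to 50.3%), and all 10 had a centred ratio below 0. Their median ratio was -0.60, against -0.31 in the 8 receptor windows.

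Within this cluster, Olfr727, Olfr728 and Olfr729 shared a window with 3793 interactions on 129 and 3766 on Cas, at the shortest distance of the set, 11 kb on both alleles. Olfr734 and Olfr735 followed with 1554 on 129 and 1496 on Cas. Olfr736 had 4389 on 129 and 3700 on Cas, in a window that also holds Tlr11, a Toll-like receptor gene. Next to it Olfr737-ps1, Olfr738 and Olfr739 were slightly ahead on Cas, with 2660 on 129 and 2871 on Cas (-0.56). Olfr740 and Olfr741 had 688 on 129 and 632 on Cas. No window of this group other than that of Olfr746 passed the test.

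The second large group of chromosome 14, Olfr1513 to Olfr1507, holds Olfr1507 (MOR28), Olfr1508 (MOR10) and Olfr1509 (MOR83), a well studied group of receptor genes whose choice in neurons depends on the H element, an enhancer upstream of the cluster. These 3 genes shared a window (chr14:52450001-52500000) with 1178 interactions on 129 and 1221 on Cas (-0.50, adjusted p = 1, beta-binomial). Olfr1510 stood lowest of all members in its ratio, with 1241 on 129 and 1575 on Cas (-0.80, adjusted p = 0.82, beta-binomial). Olfr1511, Olfr1512 and part of Olfr1513 had 2218 on 129 and 2229 on Cas, and the next window, which holds the other part of Olfr1513 beside Mettl3 and Sall2, had 3923 on 129 and 3768 on Cas. The 4 windows together had a 129 share of 49.3% (48.6 to 50.1%).

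Unequal windows lay near this group but held no receptor gene. The window of Hnrnpc, which encodes an RNA-binding protein, and Rpgrip1 (chr14:52100001-52150000) had 1729 interactions on 129 and 3462 on Cas (-1.45, adjusted p = 0.0199, beta-binomial). On the other side, a window without a coding gene (chr14:52700001-52750000) had 1 on 129 and 36 on Cas (adjusted p = 5.24e-06, beta-binomial), and the one after it had 137 on 129 and 27 on Cas (adjusted p = 0.0192, beta-binomial). With the overdispersion fitted by bins of the count, the beta-binomial test no longer called the last of these (adjusted p = 0.624). The 14 flanking windows, with these unequal ones included, had a 129 share of 48.7%. Of their 16694 interactions on Cas, 3462 were in the window of Hnrnpc. By medians of the centred ratio the flanks stood at -0.35 and the 4 receptor windows at -0.48.

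The smaller chromosome 14 groups had the same lean. Olfr720, Olfr31 and Olfr721-ps1, of the MOR274 family, had 318, 327 and 164 interactions on 129 and 299, 328 and 208 on Cas. They were among the 5 member windows or loci with the lowest counts and had the longest distances, 452 to 507.5 kb on 129 and 439.5 to 586 kb on Cas. Olfr750 had 5285 on 129 and 5222 on Cas in a window it shares with Ang and 3 other ribonuclease genes. Olfr49 had 4913 on 129 and 4477 on Cas, next to Dad1 and Abhd4.

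**Figure D3:**
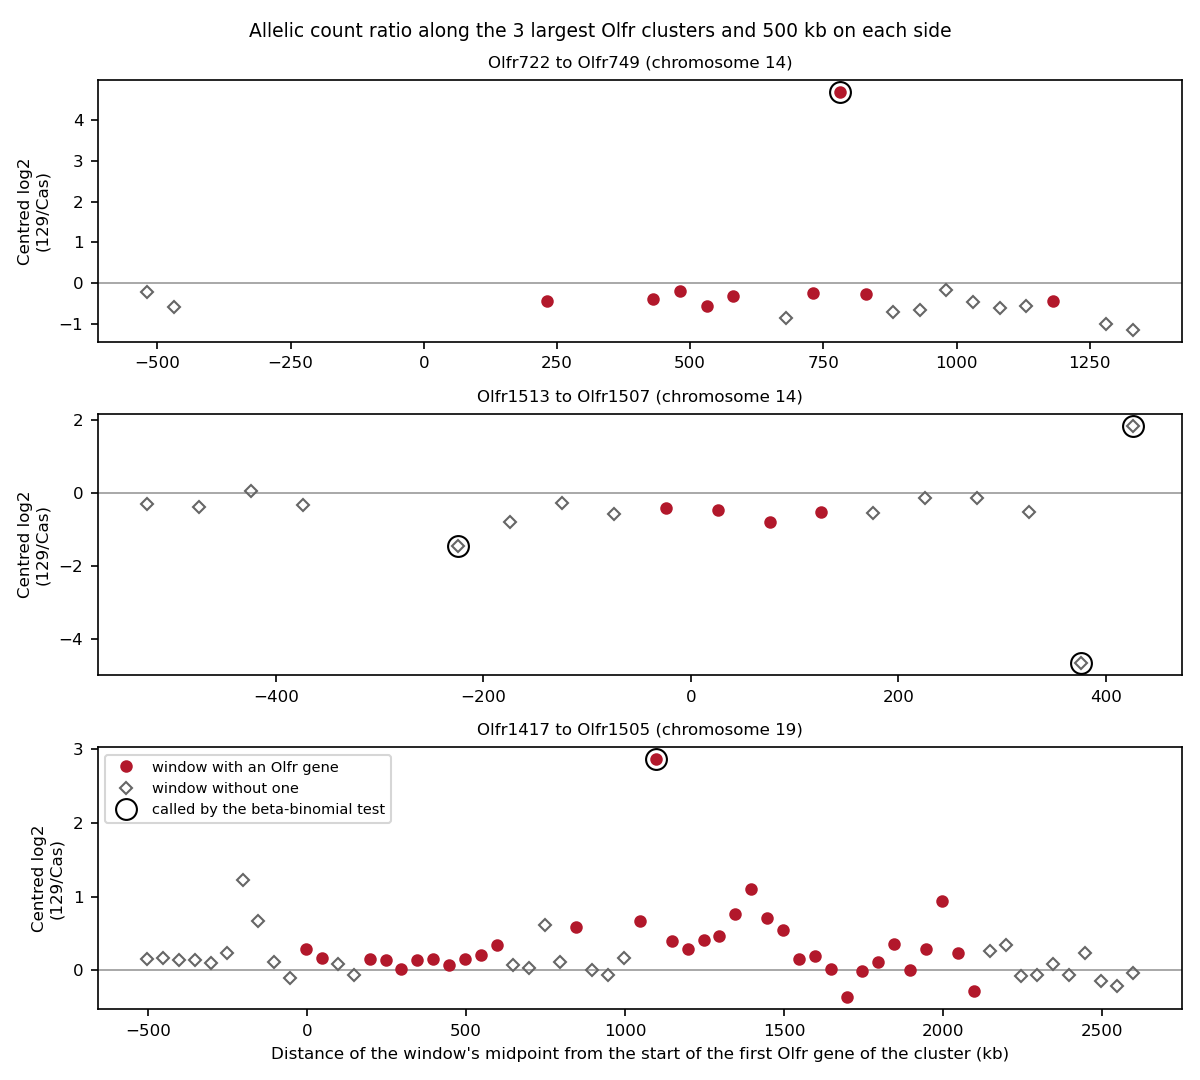
Centred log2 ratio of 129 to Cas per window along the 3 largest Olfr clusters and 500 kb on either side, plotted by distance of the window's midpoint from the first Olfr gene. Filled circles are windows with an Olfr gene, open diamonds windows without one, and rings the windows called by the beta-binomial test; each panel has its own vertical scale. The windows of Olfr746 (4.70) and of Olfr1447 (2.86) stand alone among their neighbours, and the called windows around Olfr1513 to Olfr1507 hold no Olfr gene.

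All 91 genes of chromosome 19 formed a single cluster of 2092 kb, Olfr1417 to Olfr1505, and all 43 windows across it were in the table. The 34 windows with an Olfr gene held 96847 interactions on 129 and 56082 on Cas. Their 129 share was 63.3% (63.1 to 63.6%). The 9 windows between them without a receptor gene had 58.9%, and the 20 flanking windows had 62.9%. The flank share was 59.95% without the window of Ms4a6d, Ms4a2, Ms4a3 and Oosp2, which had 9293 on 129 and 2910 on Cas (1.22, adjusted p = 0.133, beta-binomial). By medians of the centred ratio, the order was 0.23 for the receptor windows, 0.07 for the windows between and 0.13 for the flanks.

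Within the cluster the lean to 129 was not even. The MOR202 family, counted by each gene's first family name, had 37 genes from Olfr1442 to Olfr1489. They lay in 17 windows with a 129 share of 66.7% and a median of 0.41, against 61.4% and 0.16 in the other 17 windows. Olfr1555-ps1, which has MOR202-43 as a second name, was not counted in the family, and its window (0.15) was among the other 17. The family's first 11 windows, Olfr1442 to Olfr1466, ran from 0.29 to 2.86 with a median of 0.59. Its last 6, Olfr1467 to Olfr1489, ran from -0.36 to 0.20 with a median of 0.07. The family and this division were chosen after the values were seen, so they carry no test.

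Olfr1463 had the third highest ratio of the members, with 872 interactions on 129 and 297 on Cas (1.10). It did not pass the test as a window (adjusted p = 0.299, beta-binomial) or as a locus (adjusted p = 0.136). Around it stood Olfr1460-ps1, Olfr1461 and Olfr1462 with 3296 on 129 and 1417 on Cas (0.76), Olfr1464-ps1 with 698 on 129 and 311 on Cas (0.71), and Olfr1465 and Olfr1466 with 1222 on 129 and 612 on Cas (0.54). Among the 34 receptor windows of the cluster, only those of Olfr1447, Olfr1444, Olfr1442 and Olfr1498-ps1 had ratios above the lowest of these 4 adjacent windows.

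Further along, Olfr1498-ps1, Olfr1499, Olfr1500 and Olfr1501 shared a window with 2488 interactions on 129 and 949 on Cas (0.94, adjusted p = 0.537, beta-binomial). Closer to the start of the MOR202 stretch, Olfr1442 and Olfr1443 had 2446 on 129 and 1186 on Cas (0.59), and Olfr1458 and Olfr1459 had 4523 on 129 and 2386 on Cas (0.47). None of these passed the test. The lowest ratios of chromosome 19 were those of Olfr1477 to Olfr1481-ps1, with 146 on 129 and 137 on Cas (-0.36), and of Olfr1505 at the end of the cluster, with 588 on 129 and 522 on Cas (-0.28).

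Summed over both alleles, member windows held 283 to 13819 contacts. The highest were the windows of Olfr1494 to Olfr1497, with 8659 on 129 and 5160 on Cas, of Olfr1441, with 7219 on 129 and 4147 on Cas beside Pfpl, and of Olfr1428 and Olfr76, with 6469 on 129 and 4661 on Cas. The lowest counts of all members were in adjacent windows with 5 receptor genes each, 180 on 129 and 129 on Cas for Olfr1472 to Olfr1476-ps1 beside the 146 and 137 of Olfr1477 to Olfr1481-ps1. The next window, Olfr1482-ps1 to Olfr1486-ps1, also held 5 and had 500 on 129 and 366 on Cas, more than the windows of Olfr721-ps1, Olfr720, Olfr31 and Olfr746 on chromosome 14. The number of receptor genes in a window and its summed count had little relation in these windows (Pearson r = -0.04 over 17 windows of chromosome 14 and -0.06 over 34 of chromosome 19). Windows share their libraries and neighbours, and no source used here names the baited genes, so the part of bait number in these counts was not tested.

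The 8 member windows with another coding gene had medians of 4651 interactions on 129 and 3734 on Cas, against 1923 and 1221 in the 43 without one. Contacts of those 8 cannot be assigned to the receptor gene. Both called windows belong to the 43.

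The deposited distances of the receptor windows had medians of 147 kb on 129 and 129 kb on Cas, against 161.25 and 153.25 kb in the Olfr windows of other autosomes and 348 and 347.5 kb over all windows. Whether a window's distance is a mean or a median over its interactions is not stated in the labels. The chromosomes differed. On chromosome 14 the medians were 90 kb on 129 and 76.5 kb on Cas, and on chromosome 19 they were 169 kb on 129 and 166.5 kb on Cas. Windows with a coding gene but no Olfr gene had autosomal medians of 183 kb for 129 and 189 kb for Cas, and 163.5 kb on 129 and 166 kb on Cas on chromosome 19 itself. Windows with longer distances had fewer contacts (Pearson r = -0.75 on chromosome 14 and -0.74 on chromosome 19, between the 129 distance and the summed count). The distance was longer on 129 in 30 member windows and on Cas in 20, and equal in 1. The 129 distance was the longer one in 6 windows of chromosome 14 and 24 of chromosome 19, and the Cas distance in 10 of each. In the 420 Olfr windows of the other autosomes the distance also leaned this way, longer on 129 in 244, on Cas in 166 and equal in 10. Over all windows it was longer on 129 in 21230 and on Cas in 21536. A single distance per allele allows no test.

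Among single members, the largest distance difference was in the window of Olfr1444, Olfr1445 and Olfr1446, next to the called one, with 45 kb on 129 and 153.5 kb on Cas. In the opposite direction, Olfr1458 and Olfr1459 had 89 kb on 129 and 40 kb on Cas, and Olfr1469 to Olfr1471 had 194 kb on 129 and 94 kb on Cas. The window of Olfr1507, Olfr1508 and Olfr1509, nearly equal in its counts, had 147 kb on 129 and 75 kb on Cas. Over windows, the log2 ratios of distance and of count had a Pearson r of -0.07 on chromosome 14 and -0.08 on chromosome 19. Smaller differences were found in Olfr1505 (444 kb on 129 and 281 kb on Cas), Olfr1418 to Olfr1420 (71 and 45 kb), Olfr736 (37 and 57 kb) and Olfr748 with Olfr749 (92 and 127 kb).

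**Figure D4:**
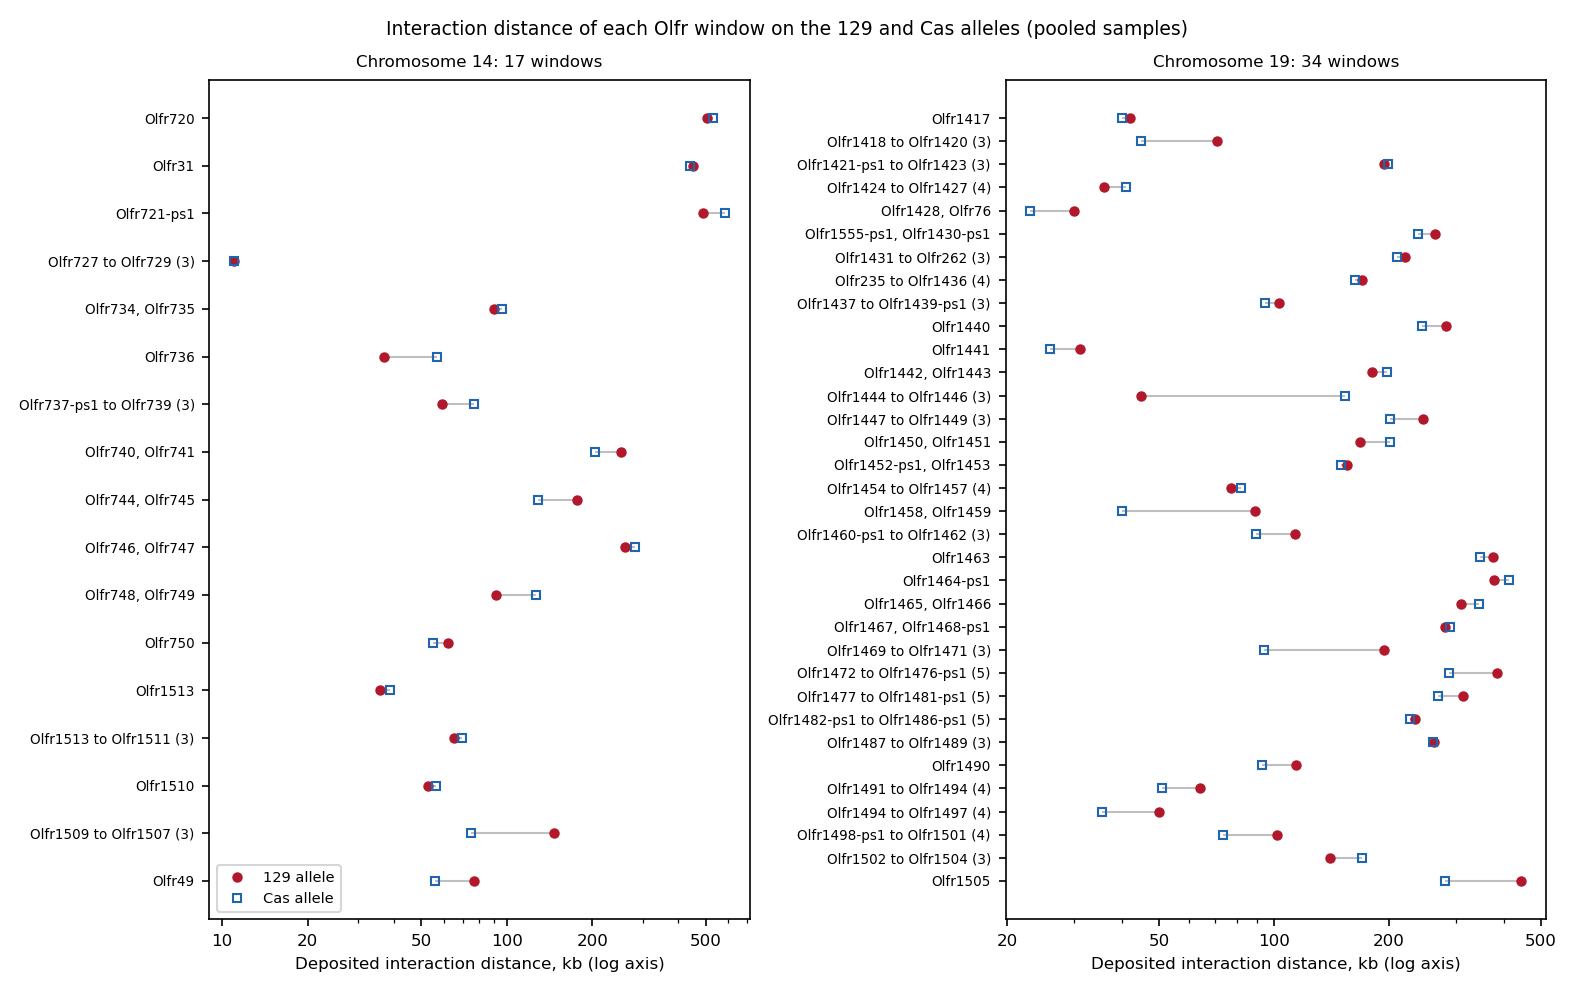
Deposited interaction distance in kb (log axis) of the 51 Olfr windows, in chromosome order from top to bottom, with filled circles for the 129 allele and open squares for the Cas allele of the pooled samples. The widest gaps are at Olfr1444 to Olfr1446 (45 kb on 129 and 153.5 kb on Cas) and at Olfr1458 and Olfr1459 (89 kb on 129 and 40 kb on Cas).

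Genes that act with the receptors in olfactory neurons were read from the same fit. The list held 30 genes of odour signalling, receptor transport, receptor choice and axon guidance, and 28 had a window. No locus was called in either direction, and 1 gene, Pde1c, a phosphodiesterase that degrades cyclic nucleotides, had a single window called with more on 129 (1.49, adjusted p = 0.0248, beta-binomial) among 13. The lowest of the 13 stood at -1.12, without a call, and the locus of Pde1c at -0.03. Over the list the called window was 1 of 99 (1.01%), beside the 0.727% of all windows called with more on 129, and 1.03% of all loci were called in that direction. Locus ratios ran from -0.27 for Atf5, a transcription factor of olfactory neurons, to 0.53 for Reep1, a protein that aids receptor transport. Their median was -0.07, against -0.02 over all loci. Genes of the list lay on both sides of 0. Lhx2 (-0.20) and Ldb1 (-0.01), which hold receptor enhancers together in neurons, and Adcy3 (-0.13), the adenylyl cyclase of odour signalling, lay below it. Ldb1 stood near the median of all loci. Stoml3 (0.27), Ebf4 (0.24), Omp (0.13) and Kdm1a (0.03) lay above 0, and none of the genes named here was called as a locus.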

How the data were processed

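Promoter Capture Hi-C was performed on 2 samples of F121-6 cells, fixed in 2% formaldehyde and read in pairs of 100 bp, per the labels' protocols. Bowtie2 and mm10 are named in the submitters' processing notes. No source used here says how the authors assigned reads to alleles, removed duplicates or merged the samples. The deposited table holds whole interaction counts per window of 50 kb and allele, not normalised. It also holds a distance per allele, deposited without a unit and taken as bp, with no statement whether it is a mean or a median. Each column was read as the pooled value of both samples. Nothing in the labels says that these came from separate cultures. PCR reads are not independent molecules.

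Genes were placed by RefSeq GRCm38 positions. Windows holding at least 10 interactions were tested against the autosomal 129 share of 57.6% with a two-sided beta-binomial test (Benjamini-Hochberg at 0.05), and loci likewise (overdispersion 0.0136). Reads lost from the Cas allele in mapping to a reference close to 129 would raise the 129 share everywhere. The centring removes only the median ratio over all windows tested. Distances were used with 10 or more interactions per allele. Alternatives were the exact binomial test, other dispersions, null shares, count minimums, centres, pseudocounts and cluster rules. Named members were the called windows, up to 10 per direction by ratio at a summed count of 30 or more, up to 5 per direction by distance, the 5 highest and 5 lowest in count, and the Olfr1507 and Olfr746 groups, and other members are named as their neighbours, family or pair after their values were seen. The members, lists and tests were chosen with earlier results of these data known. Python 3.11.15, numpy 2.4.6, pandas 2.3.3 and scipy 1.17.1 were used.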

Additional observations from a re-analysis of the deposited data

How the results depend on the processing

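The same 2 windows, those of Olfr746 and of Olfr1447, were called under each beta-binomial alternative. These were an overdispersion per bin of the count, the null share of the own chromosome, and count minimums of 30 and 100. Their adjusted p ranged from 5.64e-18 to 2.6e-15 and from 1.85e-08 to 1.77e-06 over these and the main fit. Both were also among the 47 windows of an annotated 5′ end and the 48 of coding Olfr genes. Those selections only drop member windows and have no adjusted p of their own. The exact binomial test called 44 windows and 46 loci in place of 2 and 2. Its lack of any spread between windows explains this by construction. The same test called 27.1% of all windows with more on 129 and 24.3% with more on Cas. Its share over all loci was not counted, so the 46 loci cannot be set against a general rate.

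Centring on the chromosome's own median gave medians of 0.16 over all 51 windows, against 0.15, and -0.28 on chromosome 14, against -0.40. Other medians moved little. Without the window of Olfr1447, chosen after seeing the data, the chromosome 19 median was 0.21 and its cluster share 62.7%. Without the window of Olfr746 the share of Olfr722 to Olfr749 was 51.9%. Joining genes at 150 kb divided the chromosome 19 cluster into parts with shares of 60.9% (Olfr1417 to Olfr1441), 67.3% (Olfr1442 and Olfr1443) and 65.0% (Olfr1444 to Olfr1505), and taking every window across it gave 62.2%. With 30 or more interactions per allele the median distance was 143.5 kb for 129 and 128 kb for Cas, because the window of Olfr746 dropped out.

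Leave-one-out fits were not run, since each column pools both samples, and all values come from 1 pooled library set. No paired analysis was possible because the columns carry no replicate number. A window with few counts, such as the 18 on Cas at Olfr746, gives a wide interval (23.6 to 63.9 for its ratio).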
